A study of Mus musculus with 8 samples.

Results

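The clustered histone genes are the core and linker histone genes that lie in 4 genomic clusters and carry array names beginning with Hist1h, Hist2h, Hist3h or Hist4h. The array held 68 probes for 56 such gene names. A gene was kept when, in 1 group or more, a probe of it was well above background in both mice, which left 51 of the 56 names among 25830 genes kept in all. The 51 genes were 6 of type H1, 14 of H2A, 13 of H2B, 9 of H3 and 9 of H4, and 39 of them belong to the Hist1 cluster on mouse chromosome 13. Hist1h2ad, Hist1h2ae, Hist1h2al, Hist2h2aa1 and Hist3h2bb-ps were not kept and are named only.

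The mice were bone marrow chimeras, and each group is named by its donor and then its recipient. In LL, LysM-DTR marrow was given to LysM-DTR recipients. In WL, wild-type marrow was given to LysM-DTR recipients, in LW LysM-DTR marrow to wild-type recipients, and in WW both sides were wild type. LysM-DTR mice carry the diphtheria toxin receptor under the lysozyme M promoter, which is active in macrophages, monocytes, neutrophils and alveolar type 2 cells, so the toxin can reach those cells. All 4 groups received diphtheria toxin (DT), and whole lungs of male mice aged 22 weeks were taken 72 hours later, 2 mice per group with 1 array each. No array without toxin was analysed here, so the toxin and other effects of the genotype cannot be told apart. In whole lung, fewer cells of a type and less RNA per cell cannot be told apart either. With 2 mice per group, p-values rest on a spread estimated from 4 residual degrees of freedom.

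Core histones form the octamer around which DNA is wrapped, and linker histones of type H1 bind where DNA enters and leaves it. The clustered genes are transcribed mainly while DNA is replicated, and most of their mRNAs have no poly(A) tail: they end in a conserved stem-loop that is bound by Slbp and cut by a processing complex that includes the U7 snRNP. A few clustered genes also make polyadenylated transcripts that run past the stem-loop in cells that no longer divide. The encoded proteins of 1 type are nearly identical, and so are many of the coding sequences.

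That likeness reaches the probes. The 60-base probes of the H2A genes below are read from the array files in the sense direction, 5′ to 3′, and they are shown for how alike they are. Of the 7, Hist1h2ah and Hist1h2an were called in LL against WW and Hist1h2ak in the contrast of recipients. Capitals mark bases that differ from the Hist1h2ah probe in the best alignment without gaps.
Hist1h2ah: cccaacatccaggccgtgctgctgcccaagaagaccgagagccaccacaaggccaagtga
Hist1h2ak: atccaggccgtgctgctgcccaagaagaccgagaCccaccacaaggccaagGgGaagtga
Hist1h2af: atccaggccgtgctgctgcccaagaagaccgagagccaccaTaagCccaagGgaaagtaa
Hist1h2an: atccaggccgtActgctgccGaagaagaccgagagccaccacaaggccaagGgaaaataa
Hist2h2aa2: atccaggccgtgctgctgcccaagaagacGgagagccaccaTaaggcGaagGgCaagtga
Hist2h2ac: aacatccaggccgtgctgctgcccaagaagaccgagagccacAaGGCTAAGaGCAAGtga
Hist1h2aa: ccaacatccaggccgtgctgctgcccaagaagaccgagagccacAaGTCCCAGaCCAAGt
The first of these lies at chr13:22127035-22127094 on the minus strand of mm9, the build of the array annotation, and the Hist1h2an probe at chr13:21902669-21902728 on the plus strand. The Hist1h2ak, Hist1h2af and Hist1h2an probes each share 51 of 54 overlapping bases with the Hist1h2ah probe, and the probe of the germline gene Hist1h2aa shares 54 of 58 with that of Hist2h2ac. The annotation places the probes of Hist1h2an, Hist1h2ao and Hist1h2ai at overlapping positions of chromosome 13 (21902669 to 21902728, 21902695 to 21902754 and 21902706 to 21902779). For 16 of the 51 probes used it lists transcripts of more than 1 RefSeq gene, and 13 of the 51 were at least 80% identical to the probe of another member over 40 or more bases. Values of such genes are uncertain as values of single genes, and those of the H2A genes are not independent of each other. How far each probe reads its neighbours' transcripts was not measured.

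Other probes reach the stem-loop itself. The stretches below come from the H3, H2B and H4 probes that hold the whole stem-loop, which is in capitals.
Hist1h3a: aaaGGCTCTTTTCAGAGCCaca
Hist2h2bb: aaaGGCTCTTTTCAGAGCCactt
Hist1h4m: aaaGGCCCTTTTCAGGGCCatcc
Hist1h3g: aaaGGCTCTTCTTAGAGCCaccc
The form of Hist1h3a stood in 4 probes (Hist1h2bf, Hist1h3a, Hist1h3i and Hist2h2bb), while Hist1h4m and Hist1h3g each had a form of their own. The opening letters AAAGGCTCTT or AAAGGCCCTT were found in 10 of the 68 histone probes and in 0.03% of all 56593 probes on the strand of the probe. On the other strand they were in 0 histone probes and 12 others. The letters were themselves read from the histone probes, so their share there was partly fixed in advance.

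Levels are given as log2 of the processed signal minus the 75th percentile of the array, so 0 is that percentile. Since probes differ in how they bind, levels are compared between arrays and not between genes. A gene was called when its adjusted p from limma, corrected over all 25830 genes, was under 0.05.

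In LL lungs, clustered histone genes were called in the direction above WW, and 5 of the 7 were H2A genes. Of the 51 genes, 7 were called higher and 0 lower, beside 1.21% of all genes called higher and 1.92% called lower. At an unadjusted p under 0.05 the counts were 30 higher and 5 lower. Here and below, the share of all genes at that threshold is not given. Such counts therefore say nothing about the histone genes in particular. The called genes were the linker histone Hist1h1a, the H2A genes Hist1h2ag, Hist1h2ah, Hist1h2ai, Hist1h2an and Hist1h2ao, and the H3 gene Hist1h3g. The other 6 were well above background on every array, whereas Hist1h3g was kept only through LL and WL, where it was high, so its call supports nothing about the group. The median difference over the 51 genes was 0.65, against 0.03 over all genes. Both LL arrays were above both WW arrays for 33 of the 51 genes (37% of all genes) and below both for 9 (32.4% of all genes). Leaving out either LL, LW or WW array left 0 genes called, while leaving out both WL arrays gave 26 higher and 6 lower. Slide column followed recipient genotype and the place within a column followed donor genotype, so in each comparison genotype cannot be told apart from position on the slide.

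**Figure D1:**
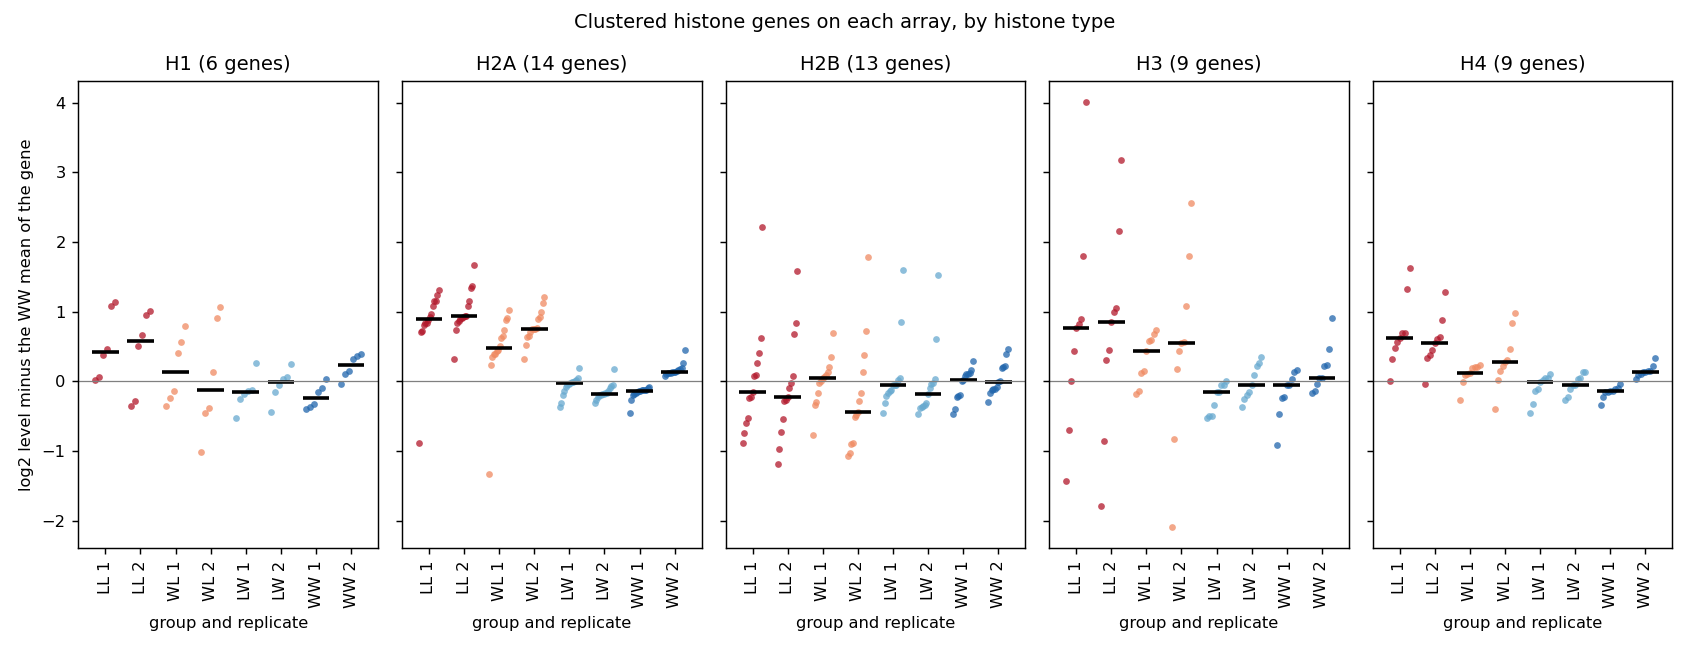
Log2 level of each clustered histone gene on each of the 8 arrays minus the WW mean of that gene, in 1 panel per histone type, with points for genes and a black line for the median. The H2A medians were 0.90 and 0.93 on the LL arrays and 0.48 and 0.76 on the WL arrays, while the H2B medians were -0.15 and -0.22 in LL.

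Among the H2A genes, Hist1h2ao read 6.08 and 6.17 in LL, 5.72 and 6.05 in WL, 4.83 and 4.66 in LW, and 4.65 and 5.03 in WW. Every LL and WL array was above every LW and WW array. Its mean was 6.13 ± 0.07 (SD, n = 2) in LL and 4.84 ± 0.27 in WW, a difference of 1.29 (SE 0.197, limma adjusted p = 0.0316). Hist1h2ai, whose probe runs into the stem-loop, read -0.21 and 0.01 in LL, -0.46 and -0.25 in WL, -1.57 and -1.59 in LW, and -1.64 and -1.10 in WW. It too had no overlap between the recipient genotypes, and LL exceeded WW by 1.26 (SE 0.215, limma adjusted p = 0.0407). A second probe of Hist1h2ai, placed at 21808994 to 21809053 of chromosome 13, was well above background on 0 arrays. The value of Hist1h2ai thus rests on the probe placed over that of Hist1h2ao. Hist1h2ag, Hist1h2an and Hist1h2ah were called at differences of 1.15, 1.08 and 0.94 with SEs from 0.167 to 0.18. Hist1h2ah read 6.87 and 6.88 in LL against 5.80 and 6.08 in WW.

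The other 9 H2A genes did not pass. Of these, Hist1h2ab, Hist1h2ak, Hist1h2af, Hist1h2aa, Hist2h2aa2, Hist2h2ac and Hist3h2a had differences between 0.72 and 0.95 with no overlap of LL and WW. Hist1h2ac had the largest H2A difference, 1.50 (SE 0.588), and Hist2h2ab the lowest, -0.28 (SE 0.48), with overlapping groups and with 1 of 2 arrays above background in LL and in WW. So 13 of 14 H2A genes were higher on both LL arrays than on both WW arrays, beside 37% of all genes. The H2A median difference was 0.92.

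The linker histones divided by gene. Hist1h1a, a replication-linked H1, read -1.79 and -1.86 in LL, -2.30 and -1.97 in WL, -3.00 and -2.81 in LW, and -2.97 and -2.77 in WW. No LL or WL array reached down to a LW or WW array, and the LL difference of 1.05 was called (SE 0.176, limma adjusted p = 0.0403). With the normexp background correction it was 0.40 and not called (limma adjusted p = 0.105). Hist1h1b differed by nearly as much, 1.04 (SE 0.281, limma adjusted p = 0.105), but its WW arrays lay apart at -0.62 and 0.17. Hist1h1d and Hist1h1e had differences of 0.57 (SE 0.243) and 0.44 (SE 0.283). Hist1h1c, an H1 that is also made from polyadenylated mRNA in resting cells, read 3.11 and 2.69 in LL against 3.07 and 3.01 in WW, so its groups overlapped at a difference of -0.15 (SE 0.257). The testis H1 Hist1h1t was at -0.13 (SE 0.186), also with overlap.

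H3 held both the largest and the lowest difference. Hist1h3g read -0.97 and -1.80 in LL, -4.30 and -2.42 in WL, -5.13 and -4.76 in LW, and -4.84 and -5.12 in WW. It was not well above background on any LW or WW array, so only a bound can be given. The mean in LL was at least 11-fold higher than the level that background allows in WW (limma adjusted p = 0.0407), and the WL mean at least 2.8-fold higher (adjusted p = 0.486). The bound sets the LL mean against the lowest signal well above background on each WW array, or the probe's own where that was higher. It holds for the processed signal only: with the normexp background correction the LL difference was 1.12 on the log2 scale and not called (limma adjusted p = 0.0504). Hist1h3a had the next difference, 1.98 (SE 0.668), from WW arrays at -5.68 and -3.85 of which 1 was above background. Like Hist1h3g, it was kept only through LL and WL. Hist1h3d, Hist1h3c and Hist2h3b were at 0.94 (SE 0.301), 0.93 (SE 0.193) and 0.81 (SE 0.177) with no overlap and no call. Hist1h3f and Hist1h3i were at 0.44 and 0.16.

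Below 0 stood Hist2h3c2 and Hist2h3c1. Hist2h3c2 read -1.11 and -1.47 in LL, 0.18 and -1.77 in WL, -0.20 and -0.05 in LW, and 0.36 and 0.28 in WW. Both LL arrays and WL replicate 2 were low, while WL replicate 1 lay near the WW arrays. The LL difference was -1.61 (SE 0.578, limma adjusted p = 0.167), and a second probe of the gene gave -1.65. Hist2h3c1 was at -0.78 (SE 0.262). Neither was called.

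All 9 H4 genes except Hist1h4h were higher on both LL arrays than on both WW arrays, beside 37% of all genes. The H4 median difference was 0.58, with 0 calls. Hist1h4m, whose probe holds the stem-loop, differed by 1.46 (SE 0.334, limma adjusted p = 0.0778) and Hist1h4i by 1.11 (SE 0.328). Hist1h4i read 0.17 and -0.27 in LL against -1.38 and -0.94 in WW. The lone Hist4 gene, Hist4h4, was at 0.65 (SE 0.143), Hist1h4j at 0.67, Hist2h4 at 0.58, Hist1h4k at 0.51, Hist1h4d at 0.43 and Hist1h4c at 0.33. Hist1h4h was at -0.02 (SE 0.131). The Hist1h4d probe was printed 10 times, and the SD of its log2 values within an array was 0.0183 to 0.0465.

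H2B was the type whose median lay below 0, at -0.21, with 0 calls. Both LL arrays were below both WW arrays for 7 of its 13 genes and above for 2, Hist1h2bp and Hist2h2bb. Over all genes the shares were 32.4% below and 37% above. Hist2h2be, a source of polyadenylated H2B mRNA, read -0.18 and -0.63 in LL, 0.65 and -0.51 in WL, 0.60 and 0.59 in LW, and 0.57 and 0.54 in WW. As with Hist2h3c2, the LL arrays and WL replicate 2 were low and the other arrays close together. Its difference was -0.96 (SE 0.375, limma adjusted p = 0.188), and -0.94 by its second probe. Hist3h2ba was at -0.93 (SE 0.312) and by its second probe at -0.35 (SE 0.259). Hist1h2be was at -0.66 (SE 0.222) and Hist1h2bc at -0.53 (SE 0.332). Hist1h2bm, Hist1h2bb, the testis gene Hist1h2ba and Hist1h2bn, all read by coding probes, were between -0.26 and 0.00, and a second probe of Hist1h2bb gave 0.07 (SE 0.252). Hist2h2bb, with a stem-loop probe, was at 0.74 (SE 0.262). Hist1h2bp was at 1.90 (SE 0.652) and above background on 1 of 2 WW arrays. It was kept only through LL and LW, where it was high, so its differences support nothing about those groups.

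**Figure D2:**
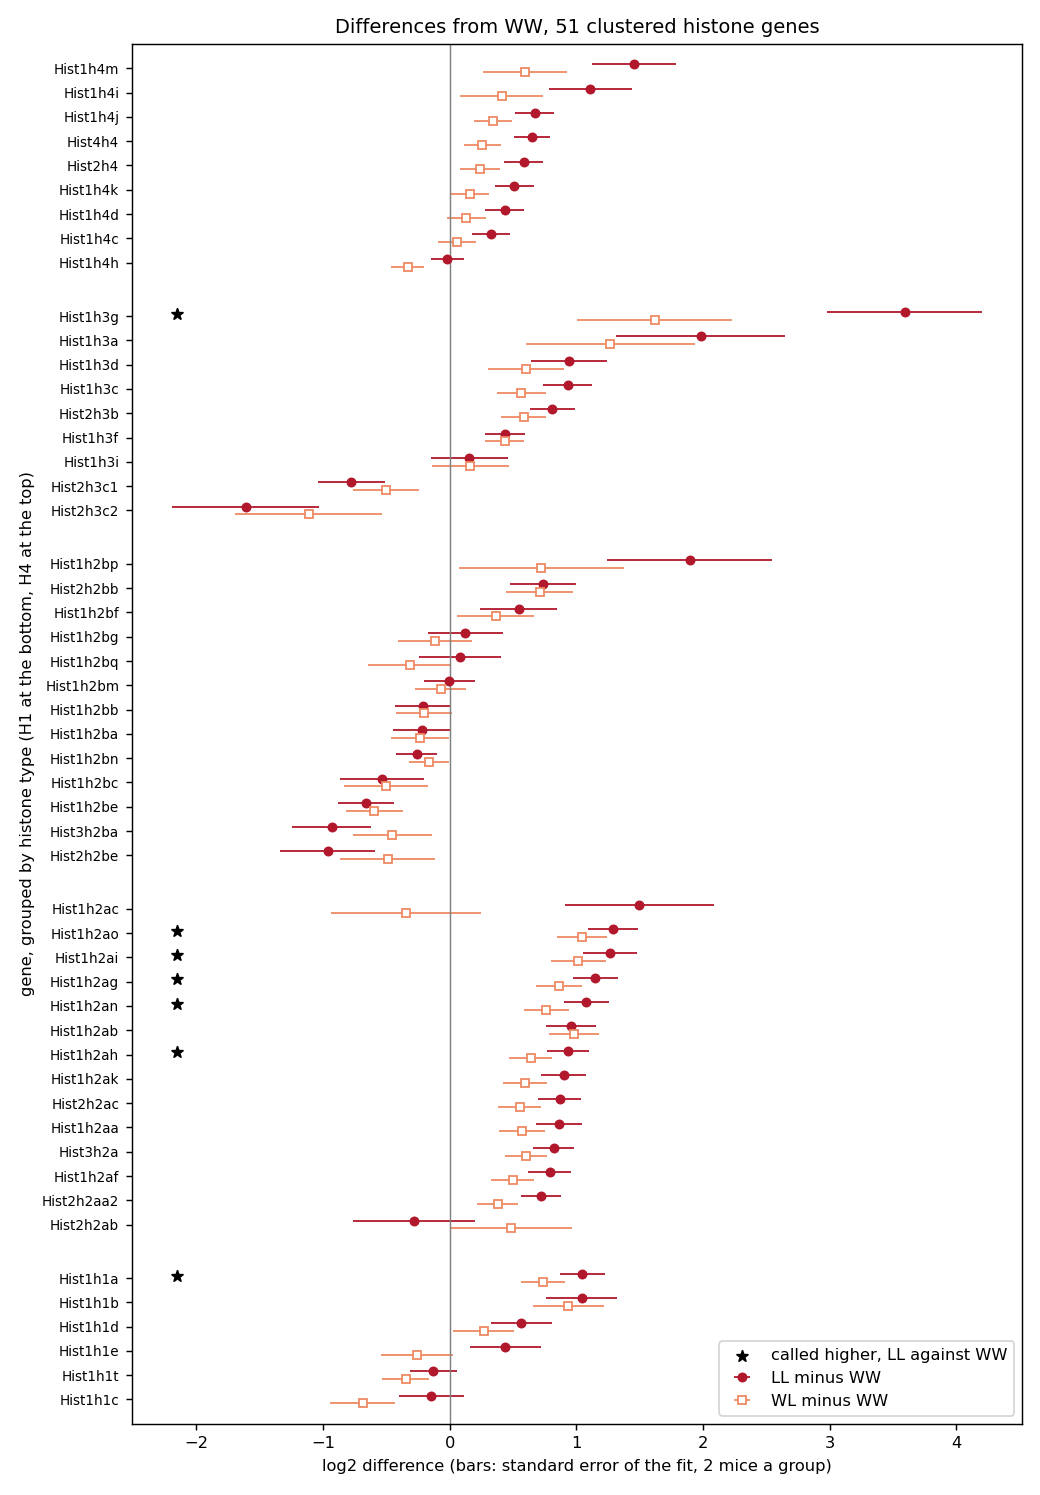
Log2 difference from WW of each of the 51 genes, with LL minus WW as filled circles, WL minus WW as open squares, bars for the standard error of the fit and stars for genes called higher in LL. The 7 stars stand beside 5 H2A genes, Hist1h1a and Hist1h3g, and the H2B row is the one with most circles left of 0.

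The genes were also sorted by what their probe reads, a split made with the results in view and given without a test. Each gene was counted once, by its probe with the highest mean. The 8 genes whose counted probe holds stem-loop letters had LL differences above 0, with a median of 1.11. Among them Hist1h3g and Hist1h3a were kept only through LL and WL, where they were high, so their differences support nothing here. The same letters stand in the second, dimmer probes of Hist1h1c and Hist3h2ba, which gave -0.24 (SE 0.299) and -0.35 (SE 0.259), so 8 of 10 such probes were above 0. Of 28 genes with a coding-like probe (at least 50% G and C and 1 reading frame without a stop codon before the last codon), 23 were above 0, with a median of 0.80. Of the 15 genes with any other probe 6 were above 0, with a median of -0.14. Of these 6, Hist1h2bp was kept only through LL and LW, where it was high. In genes outside the clusters, the same kinds of coding-like and other probes had medians of 0.06 and 0.02, and 1 of 3 genes with the stem-loop letters was above 0 (median -0.22). Within 1 gene, Hist3h2a read 4.36 and 4.40 in LL against 3.48 and 3.64 in WW by its coding-like probe, a difference of 0.82 (SE 0.162). Its second probe, farther along chromosome 11, gave 2.07 and 1.75 against 2.13 and 2.11, a difference of -0.21 (SE 0.186). The 2 probes of Hist3h2a therefore stood on opposite sides of 0. Those of Hist1h2bb did too, at -0.21 (SE 0.221) and 0.07 (SE 0.252), each within its SE of 0. In the other genes with 2 kept probes, both lay on the same side of 0. These were Hist1h1c, Hist2h2be, Hist3h2ba, Hist2h3c2, Hist1h4d and Hist1h4k.

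**Figure D3:**
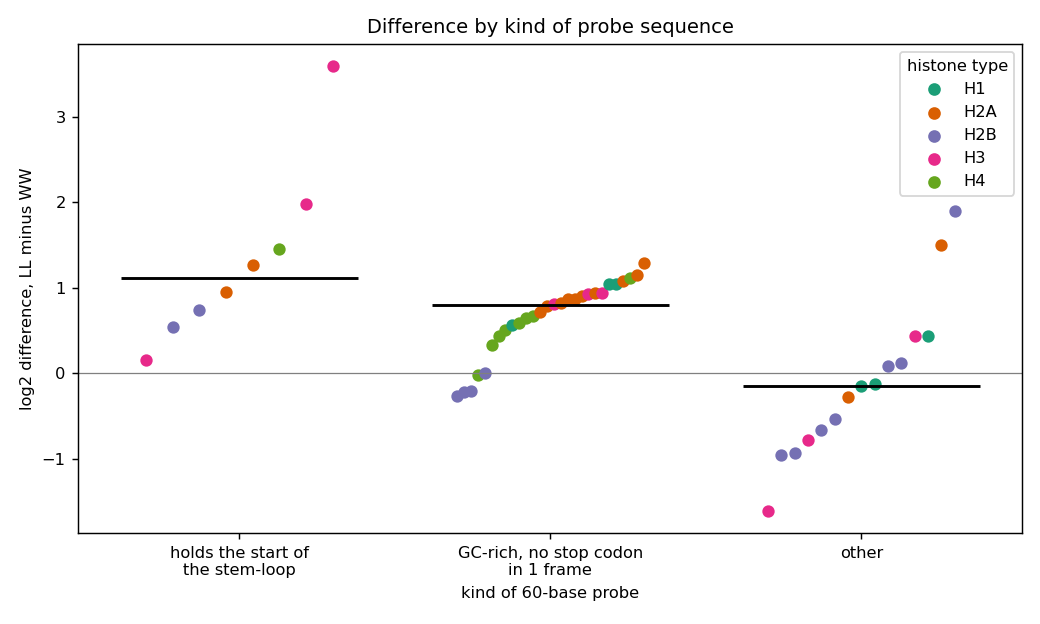
LL minus WW log2 difference of each of the 51 genes by kind of probe, coloured by histone type, with a black line for the median; each gene is shown by its probe with the highest mean. The 8 genes of the stem-loop group lie above 0, without the second probes of Hist1h1c and Hist3h2ba at -0.24 and -0.35, and the other group runs from -1.61 to 1.90. In the stem-loop group, Hist1h3g and Hist1h3a were kept only through LL and WL, where they were high. In the other group, Hist1h2bp was kept only through LL and LW, where it was high.

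Recipients with the receptor and marrow without it (WL) had no called histone gene. In WL against WW, 0 of 51 genes were called higher or lower by limma, beside 0% and 0.00387% of all genes. At an unadjusted p under 0.05 there were 18 higher and 3 lower. The WL arrays did not overlap the WW arrays for 23 genes that were higher and 6 that were lower (17.5% and 24.5% of all genes). The median was 0.36 (0.17 with the normexp background correction), with 0.60 for H2A, 0.56 for H3, 0.24 for H4, 0.01 for H1 and -0.21 for H2B. Hist1h2ao, Hist1h2ai and Hist1h2ab were at 1.04 (SE 0.197), 1.02 (SE 0.215) and 0.98 (SE 0.197). The WL and LL comparisons share the WW arrays.

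The WL mice differed from each other more than other pairs. Over all genes r was 0.96 between them and 0.99 to 0.992 in the other groups, and the median gap between WL mice over the histone genes was 0.31. Of the 33 genes with both LL arrays above WW, WL replicate 2 was above WL replicate 1 for 27. Of the 9 with both LL arrays below WW, it was below WL replicate 1 for 9. Without WL replicate 2 the WL median was 0.21. The WW mice also differed in these genes: the median gap was 0.30 over the histone genes and 0.14 over all genes, and WW replicate 2 was higher for 40 of 51. With WW replicate 1 or 2 left out, the LL median became 0.44 or 0.82.

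**Figure D4:**
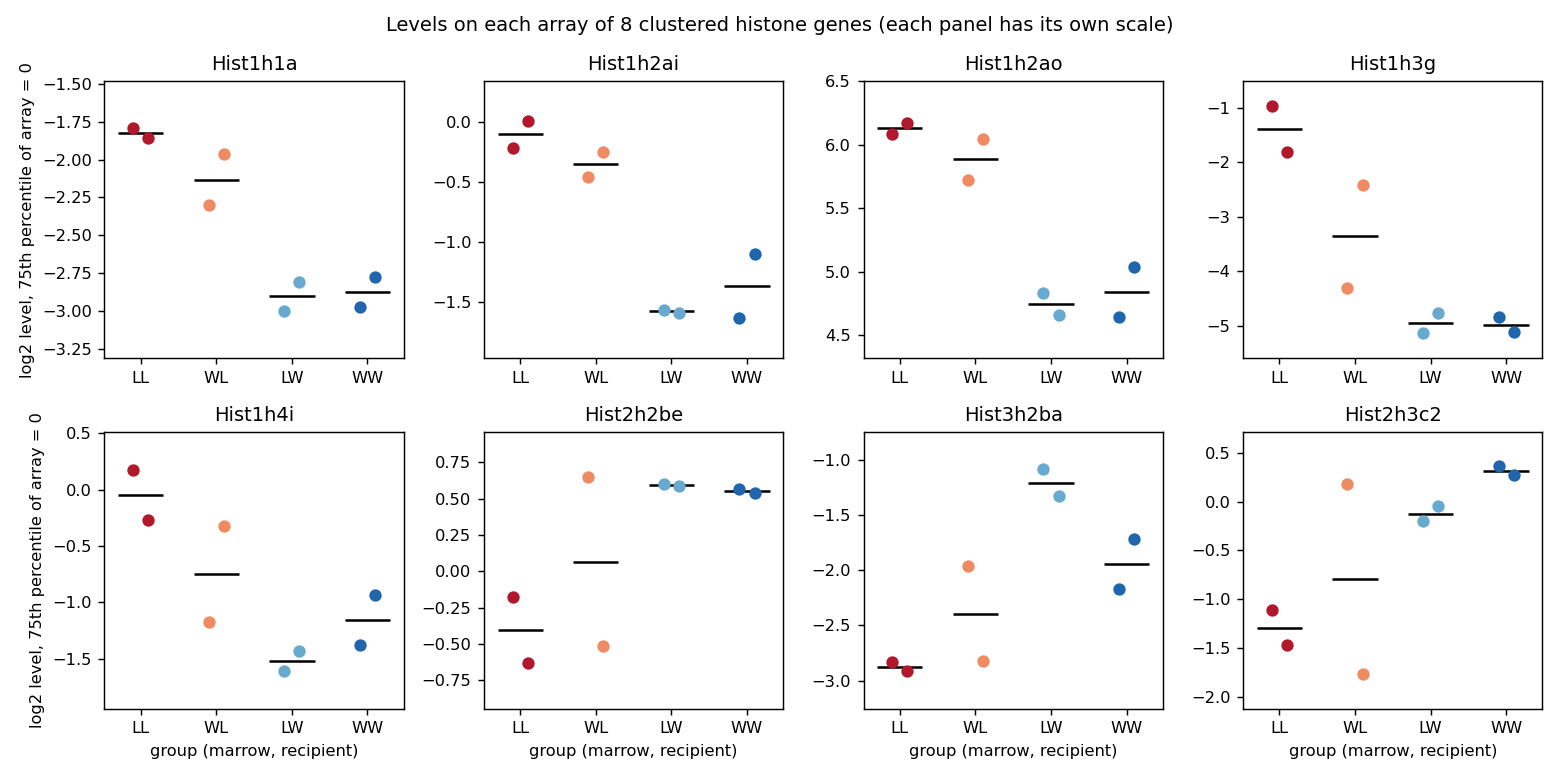
Log2 level of 8 clustered histone genes on each array (75th percentile of the array at 0), with 1 point per mouse and a line for the mean of 2. Hist1h1a, Hist1h2ai, Hist1h2ao and Hist1h3g have both LL and both WL arrays above LW and WW, while in Hist2h2be and Hist2h3c2 the low arrays are both LL arrays and WL replicate 2.

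LysM-DTR marrow alone was near WW. In LW against WW, 0 of 51 genes were called, beside 0.0465% of all genes higher and 0.00774% lower, and at an unadjusted p under 0.05 there were 0 higher and 1 lower. The arrays did not overlap for 4 higher and 11 lower genes (13.7% and 20.2% of all genes). The median was -0.09, and all 14 H2A genes lay between -0.31 and -0.01. The largest LW differences were 1.56 (SE 0.652) for Hist1h2bp and 0.73 (SE 0.312) for Hist3h2ba. Hist1h2bp was read near background and kept only through LL and LW, where it was high.

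The contrast of LL and WL with LW and WW sets the recipient genotypes against each other. Of 51 genes, 8 were called higher and 0 lower, beside 0.627% and 0.643% of all genes. They were Hist1h1a and the H2A genes Hist1h2ab, Hist1h2ag, Hist1h2ah, Hist1h2ai, Hist1h2ak, Hist1h2an and Hist1h2ao, so 7 of 14 H2A and 1 of 6 H1 genes passed, and 0 of 13 H2B, 0 of 9 H3 and 0 of 9 H4 genes. Hist1h2ai was at 1.25 (SE 0.152, limma adjusted p = 0.0284), Hist1h2ao at 1.21 (SE 0.14, adjusted p = 0.0271) and Hist1h2ab at 0.99 (SE 0.139, adjusted p = 0.0381). All 4 arrays of one recipient genotype were above all 4 of the other for 23 genes, 12 of them H2A, and below for 0 (8.7% and 8.87% of all genes).

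LL against WL asks what marrow with the receptor adds in a recipient that has it. By limma 0 of 51 genes were called, beside 0.577% of all genes higher and 1.15% lower, and at an unadjusted p under 0.05 there were 5 higher and 0 lower. Both LL arrays were above both WL arrays for 28 genes and below for 2 (23.5% and 14.3% of all genes). The 28 included all 9 H4 genes, whose differences ran from 0.27 to 0.86, and 12 of 14 H2A genes. The median was 0.29 over the histone genes and 0.05 over all genes. The test of whether the marrow effect differs between recipients (the interaction) called 0 genes, beside 0.00387% of all genes higher and 0.0581% lower; 2 and 1 had an unadjusted p under 0.05.

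H2A and H2B genes often stand head to head and share the DNA between their starts. For 4 such pairs both genes were measured, and the stretches between the starts of 2 of them are shown because the probes of the partners gave unlike values. They come from the RefSeq promoter table (GRCm38.p6), run towards the H2A gene and carry CCAAT or its reverse ATTGG in capitals.
Hist1h2ao and Hist1h2bq, chr13:21810200-21810366, plus strand: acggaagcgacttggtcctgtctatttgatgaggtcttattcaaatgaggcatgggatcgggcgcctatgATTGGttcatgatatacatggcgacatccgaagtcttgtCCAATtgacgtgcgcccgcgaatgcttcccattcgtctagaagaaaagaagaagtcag
Hist1h2ak and Hist1h2bn, chr13:21753913-21754075, minus strand: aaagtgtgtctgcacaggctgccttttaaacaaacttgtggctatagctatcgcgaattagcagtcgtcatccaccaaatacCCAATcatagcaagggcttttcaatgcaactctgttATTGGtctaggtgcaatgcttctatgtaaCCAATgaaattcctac
In LL against WW, Hist1h2ao was at 1.29 (SE 0.197) and its partner Hist1h2bq at 0.08 (SE 0.327). Hist1h2ak was at 0.90 (SE 0.176) and Hist1h2bn at -0.26 (SE 0.159). Hist1h2aa was at 0.86 (SE 0.181) and Hist1h2ba at -0.22 (SE 0.228). By these probes, the H2B value was near or below 0 beside a higher H2A value in 3 of 4 pairs. The annotation lists transcripts of 4 RefSeq genes for the Hist1h2ak probe and of 2 each for those of Hist1h2ao and Hist1h2bq. The Hist1h2aa probe is nearly that of Hist2h2ac. Whether the partner genes themselves differ was therefore not measured. In the pair of Hist1h2an, at 1.08 (SE 0.179), Hist1h2bp, kept only through LL and LW where it was high, was at 1.90 (SE 0.652). Here Hist1h2an starts on the minus strand, while the annotation places its probe on the plus strand, overlapping that of Hist1h2ao. The 1.08 can therefore not be taken as the value of the gene beside Hist1h2bp.

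The promoters of Hist1h1a and Hist1h3g, from 250 bases before the start, are printed as those of the called genes outside H2A, with CCAAT and TATAAA in capitals.
Hist1h1a, chr13:23763418-23763667, plus strand: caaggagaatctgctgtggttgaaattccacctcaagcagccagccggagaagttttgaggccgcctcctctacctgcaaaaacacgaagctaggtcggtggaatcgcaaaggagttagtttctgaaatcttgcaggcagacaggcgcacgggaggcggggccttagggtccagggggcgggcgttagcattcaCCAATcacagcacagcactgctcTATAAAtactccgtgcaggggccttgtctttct
Hist1h3g, chr13:23535168-23535417, plus strand: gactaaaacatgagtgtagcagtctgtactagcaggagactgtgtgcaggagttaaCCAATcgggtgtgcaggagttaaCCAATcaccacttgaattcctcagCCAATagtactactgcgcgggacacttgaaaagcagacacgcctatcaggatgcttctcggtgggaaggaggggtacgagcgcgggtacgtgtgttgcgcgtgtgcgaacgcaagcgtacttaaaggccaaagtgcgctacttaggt
Of the 51 genes, 46 had a promoter in the table. CCAAT or ATTGG stood in 38 of these 46 (82.6%) and in 33.8% of all 32851 promoters of the same length. It was in 6 of 6 H1, 14 of 14 H2A, 11 of 11 H2B, 5 of 7 H3 and 2 of 8 H4 promoters. TATAAA or TTTATA stood in 50% of the 46 and 12.4% of all promoters. The octamer ATTTGCAT, or ATGCAAAT on the other strand, is bound by Pou2f1 in H2B promoters; it stood in 5 of 11 H2B and 6 of 14 H2A promoters, in 0 of 6 H1, 0 of 7 H3 and 0 of 8 H4 promoters, and in 1.6% of all.

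Genes that act on histone mRNA and protein gave no call in LL against WW. Of 17 genes for histone transcription and mRNA processing, 0 were called in LL against WW and the median was 0.03. Of the 17, 9 were above 0 and 8 below. The smallest p-values were those of Zfp473, a zinc finger protein of the U7 snRNP complex, at 0.73 (SE 0.213) and of Ncbp2, a cap-binding subunit, at -0.47 (SE 0.174). Npat, the activator of clustered histone genes, was at 0.19 (SE 0.138), Casp8ap2 at 0.49 (SE 0.218) and the stem-loop binding protein gene Slbp at 0.22 (SE 0.141). Of 18 histone chaperones 0 were called in LL (median 0.26), while Asf1b, which carries new H3 and H4, was called higher by recipient genotype at 1.18 (SE 0.16). Of 11 replication-independent histone variants 0 were called in LL (median 0.18), with Cenpa, the centromeric H3, called by recipient genotype at 0.86 (SE 0.114).

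Cell cycle genes were called higher in the same lungs. Of 26 measured DNA synthesis genes, 25 were above 0 in LL against WW (13534 of all 25830 genes). Called higher were 3, beside 1.21% of all genes: Uhrf1 at 1.58 (SE 0.219), the ribonucleotide reductase subunit Rrm2 at 1.49 (SE 0.265) and Ccna2 at 1.38 (SE 0.199). By recipient genotype 6 of the 26 were called higher, beside 0.627% of all genes. Thymidine kinase Tk1, at 1.28 (SE 0.247) in LL and not called there, was called by recipient genotype at 1.195 (SE 0.175). The list median was 0.71 in LL and 0.79 in WL. Of 9 mitosis genes 8 were called higher in LL, and 8 by recipient genotype. In LL Cdk1 was at 2.58 (SE 0.441), Ccnb2 at 1.99 (SE 0.226), Ccnb1 at 1.89 and Birc5 at 1.80, and the median was 1.76. Between LL and WL, the median of the DNA synthesis list was 0.02, beside 0.29 for the histone genes. On WL replicate 2 the DNA synthesis list was 0.97 above its WW mean and on the LL arrays 0.80 and 0.72. The clustered histone genes had the opposite order, at 0.31 on WL replicate 2 and 0.55 and 0.53 on the LL arrays. On WL replicate 1 both sets were below their LL values, at 0.47 for DNA synthesis and 0.22 for the histone genes. The opposite order therefore rests on 1 mouse.

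Among markers of other cells, only the macrophage and T cell lists held a call in LL against WW. The macrophage markers fell in LL, 6 of 6 called lower (median -4.36), beside 1.92% of all genes. Ccr2 was at -5.06, C1qa at -4.73, Adgre1 at -4.46 and Lyz2 at -4.27, with list means of -3.88 and -3.47 on the LL arrays, 0.24 and 0.12 in WL and -0.46 to 0.01 in LW and WW. The 4 B cell markers stood at -2.57 and -2.63 on the LL arrays and at 0.19 and -2.00 on WL replicates 1 and 2, low on the same 3 arrays as Hist2h3c2 and Hist2h2be. Cd79a was at -2.14 in LL, and 0 of the 4 were called. The 4 T cell markers were low on the same 3 arrays, at -1.36 and -1.45 in LL and at -0.13 and -1.06 in WL. Of the lung markers, Sftpc and Sftpa1 were too, while Ager was not. Sftpc read 7.41 and 7.83 in LL, 9.51 and 7.55 in WL, and 9.63 and 9.81 in WW. The pattern was thus not particular to B cell markers. The part of any of these cells in the histone values was not tested. Of 4 T cell markers 1 was called lower in LL, Cd8a at -2.67. Means of the 4 erythroid markers ran from -1.21 to 0.73 on the LL arrays and at -0.38 and -1.21 in WL, and those of 3 marrow myeloid precursor markers from -0.19 to 0.26 in LL. In LL against WW, Hba-a1 was at -0.64, Klf1 at 0.12, Prtn3 at 0.45 and Elane at 0.14, none called. All 8 of 8 lung markers were kept. In LL 3 were above 0 and 5 below, with 0 called. The smallest p-values were those of the collagen gene Col1a1, at 1.28 (SE 0.295), and of Sftpc, of alveolar type 2 cells, at -2.10 (SE 0.587).

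**Figure D5:**
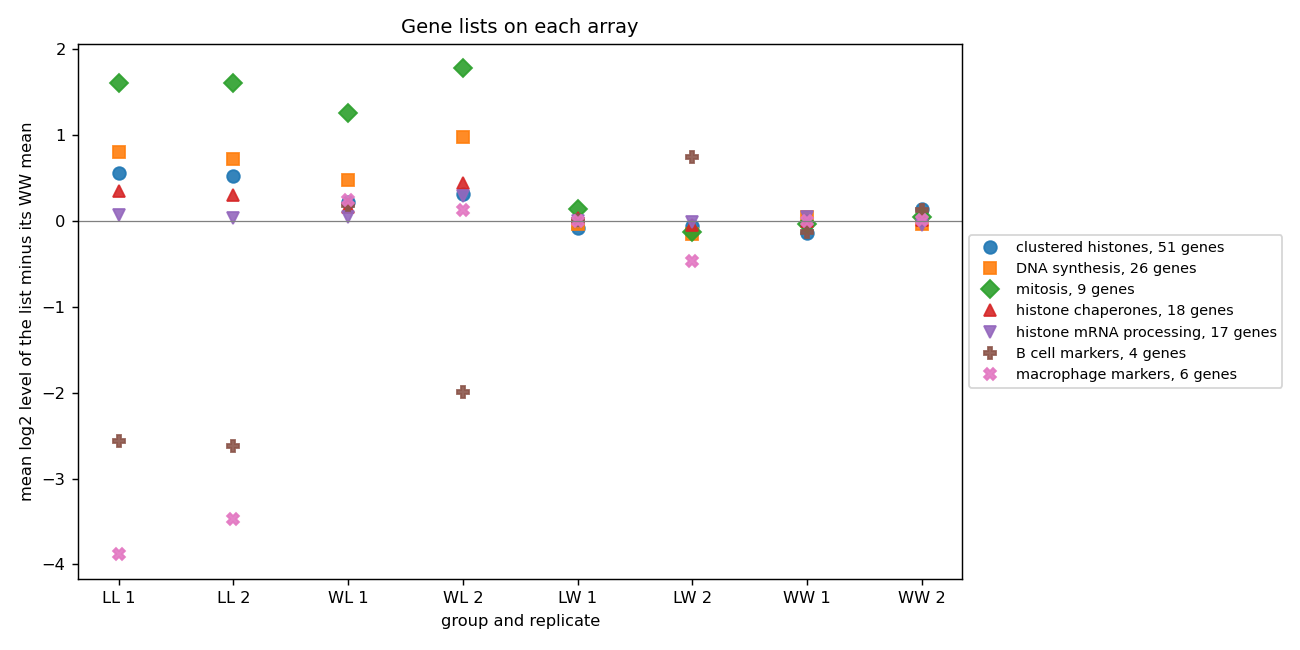
Mean log2 level of each gene list on each array minus its WW mean, with 1 marker shape per list. The histone mean is 0.55 and 0.53 in LL and 0.22 and 0.31 in WL, the mitosis list is between 1.25 and 1.78 on those 4 arrays, and the B cell list is low on both LL arrays and WL replicate 2.

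Listed histone genes with polyadenylated forms gave no call. Of the 6 genes in that list (Hist1h1c, Hist1h2bc, Hist2h2be, Hist3h2a, Hist3h2ba and Hist4h4), 0 were called in LL, 2 were above 0 and 4 below (13534 of all 25830 genes were above 0), and the median was -0.34. Both LL arrays were below both WW arrays for 3 and above for 2, beside 32.4% and 37% of all genes. Above 0 were Hist3h2a and Hist4h4, both read by coding-like probes. Of the 3 germline genes, Hist1h2aa read 5.61 to 6.69 over the 8 arrays by the H2A probe shown above, while Hist1h2ba and Hist1h1t stood at -0.22 and -0.13 in LL against WW, neither called.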

How the data were processed

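Total RNA of 8 whole lungs was labelled with Cy3 and hybridised to 1-colour Agilent arrays. The deposited scanner files hold intensity values from Agilent Feature Extraction (version 11.5.1.1 in the submitters' processing notes), with background subtraction and detrending within the array per the file headers. The values of the deposited series table are log2 and matched the log2 of the processed signal minus the 75th percentile of the array within 0.05 for at least 99.99% of 39595 probes. All arrays lay on 1 slide; 66.3 to 72.3% of spots were well above background, and the number of arrays limits the precision. Control and non-uniform spots were left out, spots of a probe averaged, log2 taken and the 75th percentile subtracted. Each gene was read by its kept probe with the highest mean. A model of 4 group means was fitted with limma 3.58.1 in R 4.3.3 on 25830 genes (prior degrees of freedom 2.19), with Benjamini-Hochberg adjustment. The fit was tested on simulated data. All 51 members matched a RefSeq name. Figures used Python 3.11.15 with matplotlib. Named genes were those called in any comparison, in each type the 3 with the highest level and the 3 with the largest and 2 with the smallest difference, the polyadenylated and germline lists, and all of clusters Hist2 to Hist4. From other lists, up to 4 called genes or the 2 with the smallest p were named; other names were chosen with their values known. Of these, 1 gene that this rule names is not reported here. The members and lists were chosen with earlier results of these data known. Alternatives were another background correction (normexp, offset 50), quantile normalisation, another percentile, no filter or a stricter one, the mean of the probes, the series table, the replicate block, a trended robust variance, only the compared arrays, no WL array and each array left out.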

Additional observations from a re-analysis of the deposited data

How the results depend on the processing

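The counts of called histone genes depended on the setting, while the 7 genes called in LL against WW had differences above 0 in all 19 alternatives. Those 7 were picked by their differences on these same arrays, so their sign lends no support. Genes that were not called, such as Hist1h1d and Hist1h4c, also stayed above 0 in all 19. In LL against WW the main count was 7 higher and 0 lower. It became 13 higher with normexp, 15 with a trended robust variance, 0 with no detection filter, 23 higher and 6 lower with only the compared arrays, and 26 higher and 6 lower without either WL array. For the recipient contrast, 8 higher became 14 with the trended robust variance and 0 with no detection filter. Leaving out 1 array at a time gave 0 to 26 higher and 0 to 6 lower in LL against WW, and 0 to 29 higher and 0 to 7 lower for the recipients. It gave 0 to 17 higher and 0 to 8 lower in WL against WW, 0 to 5 and 0 to 3 in LL against WL, and 0 to 2 and 0 to 1 in the interaction. The high ends came without a WL array, and the lone mouse is then assumed to vary like the other groups. The cause of these changes was not tested.

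With the replicate number as a block, 1 gene was called higher in LL against WW (Hist1h2ai) and 2 for the recipients. The labels do not say that equal numbers pair the samples. The correlations of deviations between groups for equal numbers were -0.097 to 0.19, which cannot settle whether they do. The block changed no other count of calls. With normexp the LL median was 0.48, the WL median 0.17 and the recipient median 0.31, where the medians of all genes were -0.01, -0.13 and -0.05. Hist1h3g and Hist1h1a were no longer called in LL (1.12 and 0.40), nor Hist1h1a for the recipients (0.31). Low signal limits Hist1h3g, Hist1h3a, Hist1h2bp, Hist1h2bg and Hist2h2ab, which were not above background on every array.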
